A study of Mus musculus with 6 samples.

Results

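Lipid-associated macrophages are a state of tissue macrophages named for their lipid handling and for the receptor TREM2. The group described here holds 10 of its best-known genes, chosen by symbol: Trem2, Lpl, Fabp4, Fabp5, Cd9, Gpnmb, Spp1, Lgals3, Mmp12 and Capg. Each stood on its own row of the count table, so 10 of 15458 rows belong to the group, and all 10 had enough reads to enter the test over 13120 genes. The table reports polyA RNA of FACS-isolated Kupffer cells, the macrophages that reside in liver sinusoids, from wild type C57BL/6 mice carrying Hepa1-6 tumours, a mouse hepatoma line. In KC_Epo (3 libraries) the tumour cells overexpressed Epo, and in KC_EV (3 libraries) they held an empty vector; in both, livers were taken on day 18 after implantation. All 6 libraries therefore come from tumour-bearing livers with no tumour-free liver among them, and Epo was raised in the implanted tumour line, not in the Kupffer cells.

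TREM2 is a surface receptor for lipids, lipoproteins and dying cells that signals through its adaptor TYROBP and the kinase SYK. In fatty, fibrotic and tumour-bearing livers, macrophages that carry it release fatty acids from lipoprotein triglyceride with lipoprotein lipase and take up lipid. They bind fatty acids inside the cell with FABP4 and FABP5, and often carry GPNMB, CD9, osteopontin (Spp1) and galectin-3 (Lgals3) as well. Resident Kupffer cells and macrophages that arise from monocytes can both express parts of this set.

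The group did not move as a block. Trem2, Lpl, Cd9 and Lgals3 rose in KC_Epo, Spp1, Gpnmb and Capg fell, and Fabp4, Fabp5 and Mmp12 did not pass the test. The rises ran from 1.51-fold for Lgals3 to 2.53-fold for Trem2 in the ratio of mean levels, and the means of the 3 that fell were 0.395 to 0.538 of those in KC_EV. Levels are in CPM, read counts scaled to the library size and a TMM factor. In all, 7 of 10 genes were called by the edgeR quasi-likelihood test at a Benjamini-Hochberg adjusted p of 0.05, 4 higher and 3 lower. Of all genes tested, 32.3% were called, 16.9% higher and 15.4% lower. The groups did not overlap for the 7 called genes, against 48.3% of all genes tested. Trem2 and Lpl, 2 of 10, were called with a log2 fold change of 1 or more, against 2.72% of all genes tested. Spp1, 1 of 10, was called with one of -1 or less, against 6.68%. The median log2 fold change was 0.60 over the 10 genes and 0.00 over all genes tested. The median over all genes depends on the scaling, as given below. In sorted cells measured in bulk, fewer cells of a type and less RNA per cell cannot be told apart.

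**Figure D1:**
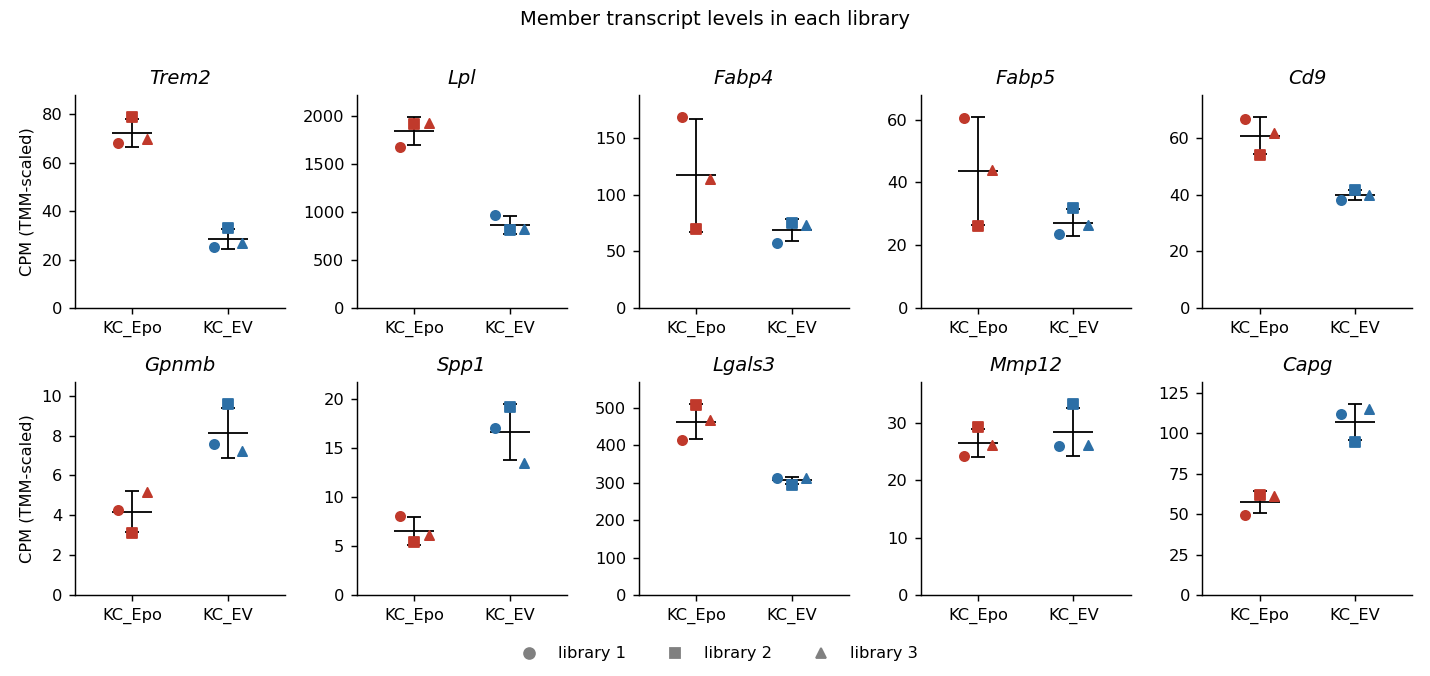
Level of each of the 10 genes in every library, in TMM-scaled CPM on a linear axis from 0, with KC_Epo in red on the left and KC_EV in blue on the right; bars give the mean and SD of 3 libraries and symbols the library number. The 3 KC_Epo libraries lie above all KC_EV libraries for Trem2, Lpl, Cd9 and Lgals3 and below them for Gpnmb, Spp1 and Capg, while Fabp4, Fabp5 and Mmp12 overlap.

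Depth ran from 23201076 counts in KC_Epo 3 to 33280754 in KC_Epo 2, and the least abundant of the 10 genes, Gpnmb, still had 96 or more reads in every library. The labels number the mice in each group but do not otherwise say that each library was 1 animal, so the p-values reflect the spread of these libraries, which may be technical. Of 14 Kupffer cell markers 11 were higher and 0 lower in KC_Epo, with a summed level of 40775 to 43099 CPM in KC_Epo and 24919 to 27043 CPM in KC_EV, which bears out the labelled cell type. Clec4f, a lectin that marks Kupffer cells, was at 11032 ± 863 CPM in KC_Epo and 6400 ± 186 CPM in KC_EV (SD, n = 3). Adgre1, a macrophage gene outside this list and picked after its values were seen, fell. It was at 844 CPM in KC_Epo and 1390 CPM in KC_EV (-0.719 ± 0.107, edgeR adjusted p = 0.000475). Transcripts that mark other liver cells were present too, and whether they came from host or tumour cells was not tested. Hepatocyte markers summed to 7027 to 23597 CPM in KC_Epo and 3098 to 3854 CPM in KC_EV, with 11 of 16 higher. That count fell to 1 with the replicate block and to 2 without KC_Epo 1 and KC_EV 1. Sinusoidal endothelial markers summed to 1643 to 2614 CPM in KC_Epo and 4601 to 5581 CPM in KC_EV, with 11 of 14 lower, or 6 with the replicate block. Erythroid markers had the largest shift of the 12 marker lists, with 608 to 1111 CPM in KC_Epo and 35.3 to 44.9 CPM in KC_EV, a median log2 fold change of 4.57 and 7 of 8 higher. Stellate cell and fibroblast markers summed to 30.8 to 68.5 CPM in KC_Epo and 118 to 124 CPM in KC_EV, with 4 of 10 lower. No marker of these lists was at 0 in all libraries. Scaling shifts all genes together. Of all calls, 24.8% were higher when libraries were scaled by their size alone, 40.6% by upper quartiles and 52.4% by TMM. Scaling by size alone put the log2 median of all genes at -0.163. The 7 called genes had the same direction under each.

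Trem2, the receptor, had 68.3, 78.7 and 69.8 CPM in KC_Epo 1 to 3, against 25.4, 33.2 and 26.9 CPM in KC_EV 1 to 3. All KC_Epo libraries were above all KC_EV libraries. The log2 fold change was 1.34 ± 0.11 (SE, edgeR adjusted p = 4.13e-06), larger in size than that of 91.7% of the genes tested. The Kupffer cell marker sum given above was higher in the same libraries. Within KC_Epo both were highest in library 2, but within KC_EV library 2 was highest for Trem2 and lowest for that sum. The part of the Kupffer cell sum in the Trem2 rise was not tested. Per kilobase of transcript, Trem2 stood at 66.4 ± 5.17 CPM in KC_Epo and 26.2 ± 3.84 CPM in KC_EV (SD, n = 3). That placed it above Cd9 and Fabp5 on average in KC_Epo, whereas in KC_EV its mean was below theirs and within the spread of Fabp5, at 27.6 ± 4.32 CPM per kilobase.

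The RefSeq promoter table (GRCm38.p6, a build before the GRCm39 named in the submitters' processing notes) had entries for Trem2, Spp1, Gpnmb, Cd9, Lgals3, Capg and Mmp12; Lpl, Fabp4 and Fabp5 are not shown. Printed here are the 250 bases before the first listed start site of the 4 genes with the largest changes that have an entry, since 1 rose and 3 fell: Trem2 (chr17:48346151-48346400), Spp1 (chr5:104434861-104435110), Gpnmb (chr6:49036268-49036517) and Capg (chr6:72549397-72549646), all on the plus strand and read 5′ to 3′. Capitals mark matches, on either strand, to 6 short motifs: CACGTG, the E-box bound by MITF, TFEB and TFE3; TCATGTG, the M-box of MITF; TGANTCA of AP-1; GAGGAAG of PU.1; AGGTCA, the nuclear receptor half-site; and the TATA box TATAAA.
Trem2: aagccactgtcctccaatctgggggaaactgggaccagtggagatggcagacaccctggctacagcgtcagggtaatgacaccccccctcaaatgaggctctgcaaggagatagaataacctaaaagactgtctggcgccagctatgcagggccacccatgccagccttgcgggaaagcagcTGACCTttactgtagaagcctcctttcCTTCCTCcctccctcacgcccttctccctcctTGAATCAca
Spp1: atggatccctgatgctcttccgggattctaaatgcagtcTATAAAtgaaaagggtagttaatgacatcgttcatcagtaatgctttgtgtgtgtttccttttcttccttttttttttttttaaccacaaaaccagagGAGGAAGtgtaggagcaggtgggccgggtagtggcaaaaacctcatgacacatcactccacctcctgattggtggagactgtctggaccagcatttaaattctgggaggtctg
Gpnmb: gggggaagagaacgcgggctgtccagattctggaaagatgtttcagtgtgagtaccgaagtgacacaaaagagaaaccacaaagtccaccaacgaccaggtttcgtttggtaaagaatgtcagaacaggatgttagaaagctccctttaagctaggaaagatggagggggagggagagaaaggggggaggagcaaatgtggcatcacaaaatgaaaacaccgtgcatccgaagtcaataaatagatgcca
Capg: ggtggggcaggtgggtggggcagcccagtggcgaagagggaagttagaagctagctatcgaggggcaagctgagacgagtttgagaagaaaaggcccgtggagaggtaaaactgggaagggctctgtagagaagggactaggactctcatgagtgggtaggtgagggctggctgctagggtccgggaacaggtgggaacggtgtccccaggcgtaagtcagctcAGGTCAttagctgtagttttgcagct
The Trem2 window held an AP-1 match at -9 to -3, a PU.1 match at -41 to -35 and a half-site at -68 to -63, counted back from the start site. Of 32851 promoter windows of this length in the table, 6.75% held the AP-1 motif, 10.6% the PU.1 motif and 14% the half-site. The Spp1 window held a PU.1 match at -113 to -107 and a match to the letters TATAAA at -211 to -206, a motif found in 12.4% of windows. The Capg window held a half-site at -26 to -21. The Gpnmb window held none of the 6 motifs; the E-box was in 6.02% and the M-box in 3.25% of all windows. A match of letters is not a measured binding site. With none in the Gpnmb window, no motif could be common to the 3 genes that fell, and Spp1 and Capg shared none.

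Beside Trem2, the rest of its pathway was mixed. Of 18 tested genes for signalling and shedding, 5 rose and 4 fell, 50% of them called against 32.3% of all genes tested. Their median log2 fold change was 0.16. Under the alternatives 4 to 7 rose and 3 to 6 fell, 7 rising without KC_EV 1 and 3 falling without KC_EV 3. Tyrobp, the adaptor that TREM2 needs at the surface, did not pass, with 656, 949 and 809 CPM in KC_Epo and 751, 692 and 776 CPM in KC_EV (0.12 ± 0.12, adjusted p = 0.478); it passed without KC_Epo 1 (0.25, adjusted p = 0.0264), and its sign was negative with library sizes only and without KC_Epo 2. Per kilobase, Trem2 was at 0.0540, 0.0430 and 0.0447 of the Tyrobp level in KC_Epo 1 to 3, against 0.0175, 0.0249 and 0.0180 in KC_EV 1 to 3, and these ranges did not overlap. Ms4a4a, a membrane protein whose human relative is linked to soluble TREM2, rose by 1.21 ± 0.15, and Adam10, the protease that sheds the TREM2 ectodomain, by 0.61 ± 0.08. Vav2, an exchange factor, rose by 0.61 ± 0.09. Ms4a7, a relative of Ms4a4a, fell by 0.87 on the log2 scale, and Syk, which relays the signal and was picked after its values were seen, fell by 0.34. Of 5 other genes of the TREM family tested, 40% were called, against 32.3% of all genes tested. Treml2 rose by 0.84 ± 0.17 and Trem3 fell by 1.63 on the log2 scale, and 3 were higher without KC_EV 1 and KC_Epo 1.

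The genes whose profile over the 6 libraries was most like that of Trem2 were Ptgis, which makes prostacyclin, Gabbr1, a GABA receptor subunit, and Nr1d1, a nuclear receptor of the clock. Likeness was the root mean square difference in log2 CPM, each gene set relative to its own KC_EV mean, and came to 0.111, 0.116 and 0.116 among 8926 genes at 10 CPM or more. Gabbr1 was at 209, 224 and 210 CPM in KC_Epo and 84.6, 84.9 and 81.3 CPM in KC_EV. With 6 libraries in 2 groups, this measure mostly finds genes with the same fold change.

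Lpl, the lipase that frees fatty acids from lipoprotein triglyceride, was the most abundant of the 10. It had 1679, 1921 and 1929 CPM in KC_Epo 1 to 3, against 974, 810 and 820 CPM in KC_EV 1 to 3. All KC_Epo libraries were above all KC_EV libraries, and the log2 fold change was 1.09 ± 0.09 (adjusted p = 6.34e-06). Lpl supplied 66.0 to 69.7% of the summed reads of the 10 genes in KC_Epo and 56.1 to 61.1% in KC_EV. The sum over the 10 genes was 2544 to 2786 CPM in KC_Epo and 1444 to 1594 CPM in KC_EV; without Lpl it was 834 to 865 CPM and 620 to 641 CPM. The 2 groups thus stayed apart in the sum without Lpl.

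Of 17 genes for Lpl partners and other lipases, 7 rose and 1 fell, 47.1% of them called against 32.3% of all genes tested. Under the alternatives 5 to 9 were higher and 0 to 3 lower, 3 lower without KC_EV 1 and KC_Epo 1. Angptl4, a secreted inhibitor of lipoprotein lipase, rose by 1.82 ± 0.16 (adjusted p = 6.33e-06), with 19.0, 20.9 and 21.9 CPM in KC_Epo and 5.08, 5.21 and 7.20 CPM in KC_EV. Lmf1, needed to fold the lipase, rose by 0.59 ± 0.09, Lrp1, a receptor for lipoprotein remnants, by 0.53 ± 0.08, and Pnpla2, the triglyceride lipase of lipid droplets, by 0.52 ± 0.08. Gpihbp1, which anchors the lipase on capillary endothelium, had 87.5, 37.7 and 59.5 CPM in KC_Epo and 142, 196 and 175 CPM in KC_EV. Its log2 fold change was -1.47 ± 0.36 (adjusted p = 0.0417), a call lost with the replicate block, with no filter and without any KC_EV library or KC_Epo 3 (adjusted p up to 0.133). Apoc3 and Lipc, hepatocyte genes, were among the 7 and were picked after their values were seen. Both calls were lost without KC_EV 2, KC_EV 3 or KC_Epo 3, that of Apoc3 also with the replicate block and that of Lipc also without KC_EV 1. The hepatocyte sums given above were higher in the same libraries, and their part in these rises was not tested.

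Fabp4 and Fabp5, which carry fatty acids inside the cell, had higher means in KC_Epo but a wide spread. Fabp4 was at 168, 69.3 and 114 CPM in KC_Epo 1 to 3, against 57.7, 75.4 and 73.1 CPM in KC_EV 1 to 3. Fabp5 was at 60.4, 26 and 44.1 CPM in KC_Epo, against 23.5, 31.9 and 26.3 CPM in KC_EV. For both, KC_Epo 2 lay within the KC_EV range and KC_Epo 1 was highest. The log2 fold changes were 0.77 ± 0.37 (adjusted p = 0.197) for Fabp4 and 0.67 ± 0.35 (adjusted p = 0.216) for Fabp5, with 95% confidence intervals of -0.23 to 1.77 and -0.24 to 1.59. Both results depended on which KC_Epo library was left out. Without KC_Epo 2 both passed, at 1.05 (adjusted p = 0.0115) and 0.95 (adjusted p = 0.00139), and without KC_Epo 1 they were at 0.42 and 0.36 (adjusted p = 0.327 and 0.338).

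The pair moved together from library to library, but other genes followed Fabp4 more closely. In likeness to the within-group pattern of Fabp4, Fabp5 ranked 42 among 8926 genes, a comparison made after the values were seen. Per kilobase, the ratio of Fabp4 to Fabp5 stayed between 2.84 and 3.07 in KC_Epo and between 2.60 and 3.06 in KC_EV, although Fabp4 itself spanned 2.43-fold within KC_Epo. Both genes lie on chromosome 3, with Pmp2 and Fabp9 of the same family between them. In KC_Epo both were highest in library 1 and lowest in library 2, and so were the hepatocyte sum, at 23597, 7027 and 14175 CPM, and the endothelial sum, at 2614, 1643 and 2030 CPM. In KC_EV both were highest in library 2 and lowest in library 1, as were the hepatocyte sum, at 3098, 3854 and 3557 CPM, and the endothelial sum, at 4601, 5581 and 5179 CPM. The erythroid sum and the stellate cell and fibroblast sum had these orders in both groups as well. Trem2, Mmp12, the B and plasma cell sum and the T and NK cell sum shared the order in KC_EV but not in KC_Epo. FABP4 is also made by capillary endothelium and adipocytes. Between the groups the endothelial sum was lower in KC_Epo, while the Fabp4 mean was 117 ± 49.6 CPM in KC_Epo and 68.7 ± 9.63 CPM in KC_EV (SD, n = 3). The part of these cells in the Fabp4 and Fabp5 levels was not tested.

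**Figure D2:**
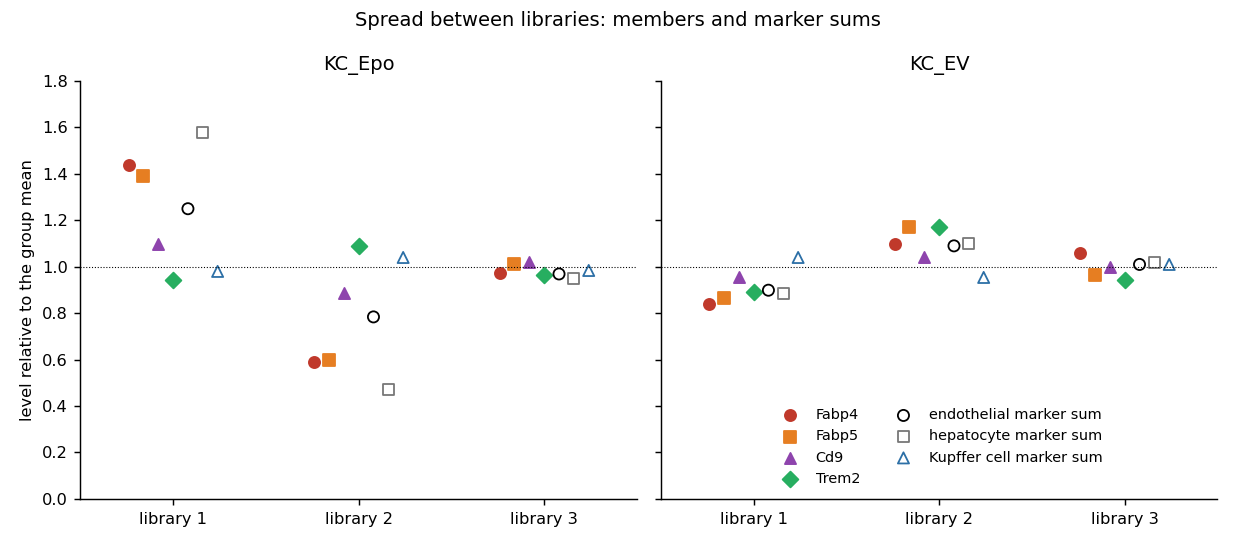
Level in each library divided by its own group's mean, for 4 genes (filled symbols) and 3 sums of cell type markers (open symbols), KC_Epo on the left and KC_EV on the right. In KC_Epo, Fabp4 spans 1.44 to 0.591 of its mean and the hepatocyte sum 1.58 to 0.471, both high in library 1 and low in library 2, while Trem2 and the Kupffer cell sum are slightly highest in library 2.

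Of the other fatty acid binding genes, 3 could be tested, 1 of them higher and 0 lower, 33.3% called against 32.3% of all genes tested. Without KC_EV 1 and KC_Epo 1, 2 were lower. Fabp7, the brain-type member that Kupffer cells express, rose by 0.59 ± 0.07 (adjusted p = 4.15e-05), with 308, 312 and 314 CPM in KC_Epo and 211, 203 and 206 CPM in KC_EV. It did so with almost no spread between libraries, in contrast to Fabp4 and Fabp5. Fabp1, the hepatocyte form, was at 10.4, 4.25 and 6.52 CPM in KC_Epo and 8.80, 11.5 and 11.9 CPM in KC_EV and did not pass (adjusted p = 0.169).

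Cd9, a tetraspanin of the cell surface, had 66.8, 54.1 and 61.9 CPM in KC_Epo 1 to 3, against 38.3, 41.8 and 40.0 CPM in KC_EV 1 to 3. The groups did not overlap, and the log2 fold change was 0.61 ± 0.09 (adjusted p = 0.00036). CD9 is abundant on platelets and is made by endothelium as well. Megakaryocyte and platelet markers summed to 55.2 to 62.3 CPM in KC_Epo and 39.2 to 41.0 CPM in KC_EV. Of 8 tested, 3 were higher, or 1 without KC_Epo 1, and 5 were not called. Most of each sum came from Pf4, picked after its values were seen. Pf4 was at 33.8, 39.5 and 33.5 CPM in KC_Epo and 23.4, 22.3 and 24.5 CPM in KC_EV. The order of the libraries for Cd9 within each group was that of Fabp4; the part of other cells in the rise was not tested. Without KC_EV 1 and KC_Epo 1 the Cd9 log2 fold change was 0.49 (adjusted p = 0.000872). Of 14 other tetraspanins and CD9 partners, 5 rose and 3 fell, 57.1% of them called against 32.3% of all genes tested. Under the alternatives 3 to 7 were higher and 1 to 4 lower, 1 lower without KC_EV 1. Tspan4 rose by 0.58 ± 0.10, Cd53 by 0.41 ± 0.08 and Cd81 by 0.44 ± 0.10. Cd63, the lysosomal tetraspanin, fell by 0.74 on the log2 scale, with 13.2, 11.7 and 12.8 CPM in KC_Epo and 20.5, 23.5 and 18.9 CPM in KC_EV.

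Gpnmb, a membrane glycoprotein of lysosomes and a target of MITF in other cells, fell in KC_Epo. It had 4.27, 3.09 and 5.15 CPM in KC_Epo 1 to 3, against 7.60, 9.56 and 7.23 CPM in KC_EV 1 to 3, or 96 to 133 reads against 241 to 299. The groups did not overlap, and the log2 fold change was -0.97 ± 0.22 (adjusted p = 0.00636). Mitf itself rose by 0.59 ± 0.10, with 47.1, 49.2 and 53.3 CPM in KC_Epo and 37.5, 30.2 and 31.8 CPM in KC_EV. Gpnmb was the lowest of the 10 genes per kilobase in both groups, at 1.13 ± 0.279 CPM in KC_Epo and 2.20 ± 0.338 CPM in KC_EV.

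Spp1, which encodes osteopontin, a secreted ligand of CD44 and of integrins, had the largest fall of the 10. It had 8.10, 5.41 and 6.15 CPM in KC_Epo 1 to 3, against 17.1, 19.2 and 13.5 CPM in KC_EV 1 to 3. All KC_Epo libraries were below all KC_EV libraries, and the log2 fold change was -1.34 ± 0.18 (adjusted p = 0.000208). In size this matched the rise of Trem2, in the opposite direction. Spp1 is also made by bile duct cells. Of 9 tested cholangiocyte markers 5 were lower and 0 higher, with sums of 18.4, 11.7 and 17.6 CPM in KC_Epo and 77.0, 37.9 and 38.4 CPM in KC_EV. None was at 0 in all libraries, and their part in the Spp1 level was not tested. Of the KC_EV 1 sum, 35.7 CPM came from Krt7, a keratin picked after its values were seen. Without KC_EV 1 and KC_Epo 1 the Spp1 log2 fold change was -1.51 (adjusted p = 0.000119).

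Of 9 tested receptors and relatives of osteopontin, 2 rose and 1 fell, 33.3% of them called against 32.3% of all genes tested; 4 were higher without KC_EV 1 and KC_Epo 1. The integrin chains Itgav and Itgb5 rose by 0.47 ± 0.07 and 0.69 ± 0.11, and Itga5 fell by 0.97 on the log2 scale. Cd44 did not pass at 0.14 ± 0.08 (adjusted p = 0.222), passed without KC_EV 1 (0.22, adjusted p = 0.049) and without KC_EV 1 and KC_Epo 1 (0.18, adjusted p = 0.0225), and was slightly negative with library sizes only. Per kilobase Spp1 was at 0.0352, 0.0249 and 0.0280 of the Cd44 level in KC_Epo and 0.0763, 0.104 and 0.0687 in KC_EV.

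Lgals3, galectin-3, a lectin that binds galactosides inside and outside the cell, had 415, 507 and 469 CPM in KC_Epo 1 to 3, against 312, 295 and 312 CPM in KC_EV 1 to 3. The groups did not overlap, and the log2 fold change was 0.60 ± 0.08 (adjusted p = 0.000229). Lgals1, galectin-1, went the other way, with 14.4, 14.7 and 16 CPM in KC_Epo and 58.9, 41.5 and 44.1 CPM in KC_EV (-1.68 ± 0.13, adjusted p = 4.31e-06). Per kilobase, Lgals3 exceeded Lgals1 by 16.2, 19.4 and 16.5 times in KC_Epo and by 2.99, 4.01 and 3.99 times in KC_EV. Of 6 other galectin genes tested 3 rose and 1 fell, 66.7% of them called against 32.3% of all genes tested. Lgals9 rose by 0.53 ± 0.09, Lgals3bp, a secreted galectin ligand, by 0.84 ± 0.12 and Lgals8 by 0.32 ± 0.07. The call of Lgals8 was lost with library sizes only (0.16, adjusted p = 0.0632).

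Mmp12, the macrophage elastase, was the member closest to 0. It had 24.3, 29.2 and 26.1 CPM in KC_Epo 1 to 3, against 25.9, 33.2 and 26.1 CPM in KC_EV 1 to 3, and the groups overlapped. The log2 fold change was -0.10 ± 0.12 (adjusted p = 0.566), with a 95% confidence interval of -0.35 to 0.16. Of 15 tested proteases and inhibitors of its family, 2 rose and 4 fell, 40% of them called against 32.3% of all genes tested, and 4 were higher without KC_Epo 1. Mmp19 rose by 1.28 ± 0.10 and Mmp27 by 0.62 ± 0.07, while Mmp9, a gelatinase, fell by 1.77 and the membrane-bound Mmp14 by 0.70 on the log2 scale. Timp1, a metalloprotease inhibitor, did not pass (-0.94 ± 0.45, adjusted p = 0.128).

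Capg, which caps the barbed ends of actin filaments, had 49.7, 61.7 and 61.6 CPM in KC_Epo 1 to 3, against 112, 94.7 and 115 CPM in KC_EV 1 to 3. The groups were well apart, with a log2 fold change of -0.90 ± 0.10 (adjusted p = 7.09e-05). Of 9 tested relatives in actin capping and severing, 2 rose and 1 fell, 33.3% of them called against 32.3% of all genes tested. With library sizes only 0 were higher, and 4 were higher without KC_EV 1 and KC_Epo 1. Gsn, gelsolin, fell by 0.75 on the log2 scale. Svil and Twf1 rose by 0.34 ± 0.08 and 0.28 ± 0.07, calls lost with library sizes only, and that of Twf1 also without KC_EV 2 or KC_Epo 3. Capg is expressed by monocytes too, whose markers were mixed, with 3 of 10 higher and 2 lower and sums of 509 to 724 CPM in KC_Epo and 453 to 564 CPM in KC_EV; their part in the Capg level was not tested.

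**Figure D3:**
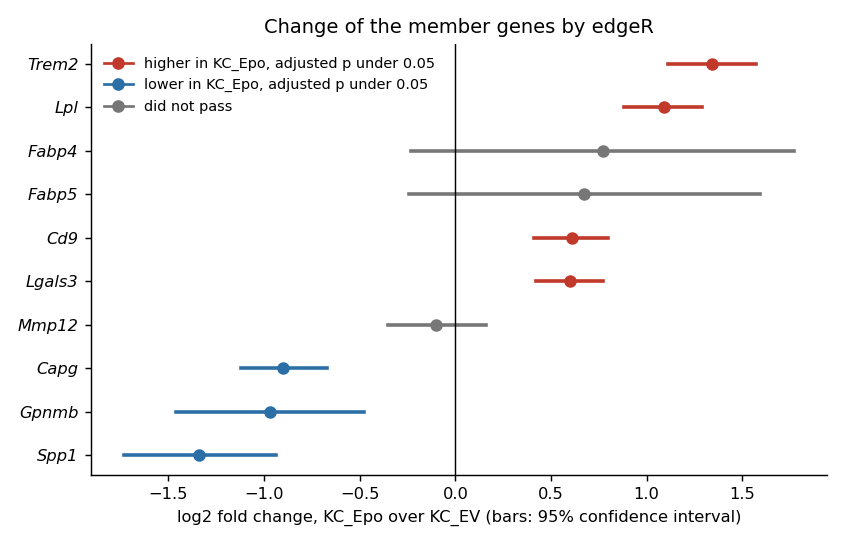
Log2 fold change of the 10 genes, KC_Epo over KC_EV, from the edgeR fit on all genes, with 95% confidence intervals (horizontal bars); red marks genes higher and blue genes lower at an adjusted p under 0.05, and grey genes that did not pass. Trem2 at 1.34 and Spp1 at -1.34 form the ends, and the intervals of Fabp4 and Fabp5 are the widest.

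Order by level also differed between the groups. Per kilobase, Lpl stood first in KC_Epo at 448 ± 34.5 CPM, above Lgals3 at 327 ± 32.7 CPM, whereas in KC_EV they were at 211 ± 22.4 and 216 ± 6.99 CPM and did not differ beyond their spread (SD, n = 3). Fabp4 came next, at 131 ± 55.4 CPM in KC_Epo and 76.7 ± 10.7 CPM in KC_EV. Capg was level with Fabp4 in KC_EV at 76.6 ± 7.81 CPM, and in KC_Epo, at 41.2 ± 4.93 CPM, it lay within the spread of Fabp5, at 44.1 ± 17.4 CPM. Cd9 was at 49.6 ± 5.23 CPM in KC_Epo and 32.6 ± 1.39 CPM in KC_EV. Mmp12, at 7.36 ± 0.696 CPM in KC_Epo and 7.87 ± 1.15 CPM in KC_EV, stood above Spp1 in KC_Epo, at 4.35 ± 0.922 CPM, and below it in KC_EV, at 11 ± 1.89 CPM. For comparison, Clec4f stood at 4464 ± 349 CPM per kilobase in KC_Epo and 2590 ± 75.4 in KC_EV.

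Beyond the 10 genes, 23 further genes named for lipid-associated macrophages in other studies could be tested, and 12 rose and 8 fell. Of them 87.0% were called, against 32.3% of all genes tested, but these genes were listed with earlier results of the data known. Those that rose included Ctsd, a cathepsin, at 1.34 ± 0.10, Igf1, a growth factor, at 1.14 ± 0.08, Apoe, the lipid-carrying apolipoprotein, at 0.81 ± 0.08 and Plin2, the lipid droplet coat, at 0.52 ± 0.08. Those that fell included Lgals1 and Cd63, given above, and Csf1, a macrophage growth factor, at -1.32 ± 0.12. Cd36, a fatty acid transporter, did not pass at 0.14 ± 0.07 (adjusted p = 0.143), and its sign was negative with library sizes only. Among 16 tested transcription factors linked to lipid-laden macrophages, 11 rose and 1 fell, 75% of them called against 32.3% of all genes tested. These too were listed with earlier results of the data known. Cebpa rose by 1.00 ± 0.09, Rxra by 0.65 ± 0.08 and Tfec, a relative of MITF, by 0.52 ± 0.07, and Pparg, a fatty acid sensor, rose by 0.51 ± 0.12. Nr1h3, which encodes LXR alpha, was at 0.20 ± 0.07 (adjusted p = 0.0448), a call lost under 10 of 17 alternatives. With library sizes only, 7 of the 16 were higher.

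**Figure D4:**
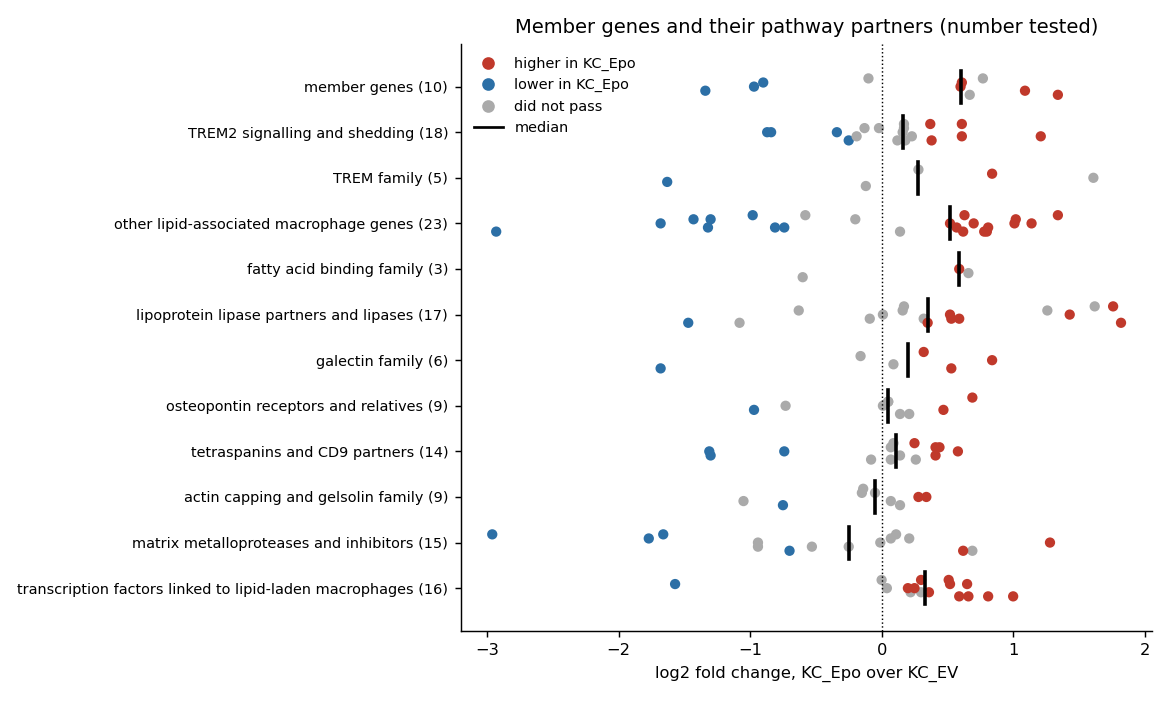
Log2 fold change, KC_Epo over KC_EV, of every tested gene in the group (top row) and in 11 lists of partners and relatives, with the number tested in brackets; black bars are medians, red and blue points passed the edgeR test at an adjusted p of 0.05, grey points did not. Most rows hold points on both sides of 0, and the transcription factor row has 11 of 16 points called higher.

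The calls of the 7 genes did not rest on a single library or setting. Over 17 alternatives of scaling, filter, tool, block and left-out libraries, Trem2 ranged from 1.18 to 1.47, Lpl from 0.93 to 1.23, Cd9 from 0.45 to 0.69 and Lgals3 from 0.44 to 0.68, each passing every time. Spp1 ranged from -1.52 to -1.20, Capg from -1.06 to -0.78 and Gpnmb from -1.13 to -0.78, also passing every time, the highest adjusted p being 0.0403 for Gpnmb.

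**Figure D5:**
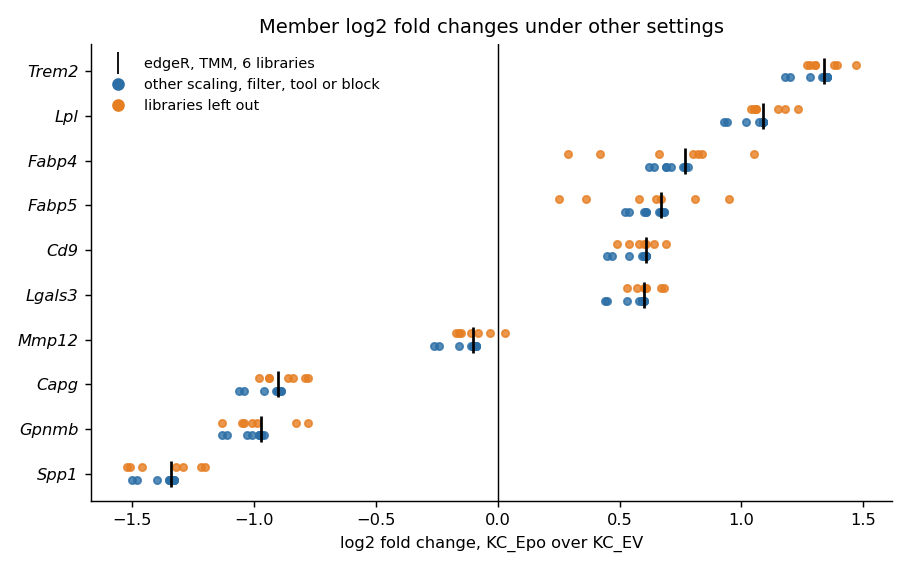
Log2 fold change of each of the 10 genes, KC_Epo over KC_EV, in the edgeR fit with TMM factors on 6 libraries (black bars), under other scalings, filters, tools or the replicate block (blue points), and with libraries left out (orange points). Fabp4 runs from 0.29 to 1.05 and Fabp5 from 0.25 to 0.95 when libraries are left out, while no called gene reaches 0.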

How the data were processed

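The authors deposited raw counts of reads per gene, as whole numbers. Per the labels' protocols, the kit was TruSeq stranded mRNA. GRCm39 and, without roles, HTSeq 0.11.2, STAR 2.7.3a, Bowtie2 2.5.1 and FastQC 0.11.8 appear in the submitters' processing notes; how HTSeq was set is not given in the sources used here. Of overlapping genes in GENCODE M21, Gm42793 shares exon sequence with Spp1 on the same strand, and Gm26728 and Mmp1b do so antisense to Cd9 and Mmp12; none is in the table.

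Counts were fitted in R 4.3.3 with edgeR 4.0.16 (TMM, filterByExpr, robust quasi-likelihood F test, two-sided, no block), adjusted by Benjamini-Hochberg over 13120 genes. Where a symbol had 2 rows (12 symbols, no member), the larger kept the name and both were tested. Levels are TMM-scaled CPM; standard errors come from the F statistic; transcript length is that of the longest coding transcript in GENCODE M21 (GRCm38). The procedure was checked on simulated counts. Within a group, libraries differed by a chi-square of 6.13 or more per gene, so none was a copy. Alternatives used DESeq2 1.42.0 and limma 3.58.1 (voom) among others; 1 more, without both KC_Epo 1 and KC_EV 1, was chosen after seeing the data. The 10 genes, all lists and tests were chosen with earlier results of these data known. Every member is named; of each other list, up to 4 called genes with the smallest adjusted p and 12 set genes, unless marked; 1 gene under this rule is not reported here. Same-numbered libraries showed no sign of pairing, which 3 libraries per group cannot exclude.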

Additional observations from a re-analysis of the deposited data

How the results depend on the processing

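Over 170 recomputed values of the 10 genes, 167 kept their direction and side of the threshold, 2 newly passed (Fabp4 and Fabp5 without KC_Epo 2, given above) and 1 changed sign: Mmp12 was at 0.03 without KC_EV 2 (-0.17 without KC_Epo 2, and lowest at -0.26 with library sizes only). The members called were 4 higher and 3 lower under every alternative except without KC_Epo 2, where 6 were higher. Over all genes, 2219 were higher and 2015 lower; with library sizes only, 1193 and 3616, and with library sizes taken without hepatocyte, erythroid and B cell markers, 1263 and 3368. With libraries left out in turn, 1477 to 2410 were higher and 1251 to 2147 lower, the lowest of both without KC_Epo 3, the shallowest library; without KC_EV 1 and KC_Epo 1 together, 2481 and 2386 were called. With the replicate block 1800 were higher and 1558 lower, and the members stayed at 4 and 3. Same-numbered libraries had correlations of their deviations across genes of -0.12, -0.18 and -0.03, and no library correlated best with its own number. Among partner genes that did not pass, signs changed with library sizes only for Tyrobp (-0.04), Cd36 (-0.02) and Cd44 (-0.02), with the library sizes without those markers for Tyrobp (-0.02), Cd36 (-0.01) and Cd44 (0.00), and without KC_Epo 2 for Tyrobp (-0.01, against 0.25 without KC_Epo 1). The cause of these changes was not tested. Depth was 23201076 counts or more in every library; its part in the calls was not tested.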

Other observations

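The within-group pattern of Fabp4 was compared with all genes at 10 CPM or more after its values had been seen. The closest profiles, as root mean square difference of log2 deviations from the group means, were those of Robo4, Ccm2l, Cdc42ep1 and Dll4, at 0.0226, 0.0294, 0.0337 and 0.0365. Robo4, an endothelial guidance receptor, was at 72.6, 31.2 and 49.6 CPM in KC_Epo 1 to 3 and 108, 139 and 136 CPM in KC_EV 1 to 3. Dll4, an endothelial Notch ligand, was at 15.3, 5.76 and 10.3 CPM in KC_Epo and 23.2, 31.8 and 28.7 CPM in KC_EV. The means of these genes were lower in KC_Epo, where the Fabp4 mean was higher.

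Fabp4 was set relative to Gpihbp1, the endothelial anchor of lipoprotein lipase, a gene picked after its values were seen, so this is given with no test. The ratio of Fabp4 to Gpihbp1 in CPM was 1.92, 1.84 and 1.91 in KC_Epo 1 to 3 and 0.406, 0.386 and 0.418 in KC_EV 1 to 3, a 4.69-fold difference of the mean ratios. Over the summed endothelial markers it spread more, at 64.4, 42.2 and 56.1 CPM of Fabp4 per 1000 CPM of markers in KC_Epo and 12.5, 13.5 and 14.1 in KC_EV. For Fabp5 the ratio to Gpihbp1 was 0.689, 0.691 and 0.741 in KC_Epo and 0.166, 0.163 and 0.150 in KC_EV. For Cd9 the same ratio spread more, at 0.763, 1.43 and 1.04 in KC_Epo and 0.270, 0.213 and 0.229 in KC_EV. Which cells supplied the Fabp4 and Fabp5 reads was not tested.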
